A study of Mus musculus with 12 samples.

Results

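The genes described here encode 2-oxoglutarate dioxygenases other than the TET enzymes: histone demethylases, oxygen sensors, collagen hydroxylases, the AlkB family and related hydroxylases. They were taken from a list of 46 mouse genes, as every array probe set whose annotation gave exactly 1 gene symbol and whose symbol was on the list. This found 45 genes with 103 probe sets, out of 15858 genes with 28805 such probe sets. P4ha2, a collagen prolyl hydroxylase, had no such probe set, and 1 probe set that pairs Kdm6b with a second symbol was left out. The remaining genes had between 1 and 8 probe sets each.

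The cells were mouse bone marrow cells of strain C57BL/6 made to grow without limit by HoxA9, a homeobox protein that blocks myeloid differentiation when overexpressed. All groups shared this HoxA9 background, a retroviral vector with a fluorescent marker, growth in irradiated recipient mice and a sort for GFP+ cells from recipient marrow 4 weeks later. The groups, with 3 arrays each, were cells with the empty vector, cells with pSF91-IDH1wt-IRES-EGFP (IDH1wt), cells with pSF91-IDH1mut-IRES-GFP (IDH1mut), and empty vector cells from mice given R-2HG (1 mg per day, 4 weeks; this group is called R-2HG). IDH1mut is a mutant isocitrate dehydrogenase 1, an enzyme form known to make R-2-hydroxyglutarate, and R-2HG is that metabolite. The labels name neither the exact mutation, the promoter in the vector nor the species of the IDH1 sequence. The description attached to the treated samples mentions IDH1mut instead, in conflict with every other field, and was not followed. Whether each replicate is a separate mouse is not stated, so p-values here reflect only the spread among arrays, and 3 arrays a group limit the precision.

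Enzymes of this family bind iron and use 2-oxoglutarate and molecular oxygen to hydroxylate a substrate, releasing succinate and carbon dioxide. On a methyl group the hydroxylation leads to demethylation, which is how the JmjC histone demethylases and the AlkB enzymes remove methyl marks from histones, DNA and RNA. R-2-hydroxyglutarate resembles 2-oxoglutarate and is known to compete with it in many of these enzymes. The arrays measure the RNA of the enzymes, not their activity.

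Several of the genes are themselves known targets of the hypoxia-inducible factors (HIF), which bind DNA at the core motif ACGTG or GCGTG. The RefSeq promoter table (build GRCm38.p6) held 37 of the 46 listed genes, P4ha2 included, with 47 promoters of distinct sequence. Each was read here as the 250 bases before the transcript start. Genes with several starts count more than once, and their windows can overlap, as some of Kdm2b do. The core was present on either strand in 28 of the 47 promoters (59.6%), against 50.9% of 15979 promoters of tested genes of the same length. ACGTG was found in 34% against 20.1%, GCGTG in 48.9% against 40%, and the E-box CACGTG, which contains ACGTG on both strands, in 6.38% against 7.67%. A match describes the letters and is not a binding site. The promoters of P4ha1, Egln1, Alkbh2 and Alkbh7 are shown because these genes had some of the larger changes below and differ in the motif. Each reads 5′ to 3′ along the gene's strand, with every ACGTG or GCGTG of either strand in capitals, overlapping matches joined.
P4ha1 (chr10:59323046-59323295, + strand): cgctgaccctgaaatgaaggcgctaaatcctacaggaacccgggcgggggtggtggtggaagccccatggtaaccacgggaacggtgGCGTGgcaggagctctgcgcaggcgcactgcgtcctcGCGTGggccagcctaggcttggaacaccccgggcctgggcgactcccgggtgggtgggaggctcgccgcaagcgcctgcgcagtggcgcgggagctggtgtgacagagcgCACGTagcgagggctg
Egln1 (chr8:124949255-124949504, - strand): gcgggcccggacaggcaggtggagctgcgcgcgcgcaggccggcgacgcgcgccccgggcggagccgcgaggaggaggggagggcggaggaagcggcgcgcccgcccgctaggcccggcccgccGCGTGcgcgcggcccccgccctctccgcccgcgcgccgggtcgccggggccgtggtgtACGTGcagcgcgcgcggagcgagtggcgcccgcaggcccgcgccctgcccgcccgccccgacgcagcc
Alkbh2 (chr5:114128219-114128468, - strand): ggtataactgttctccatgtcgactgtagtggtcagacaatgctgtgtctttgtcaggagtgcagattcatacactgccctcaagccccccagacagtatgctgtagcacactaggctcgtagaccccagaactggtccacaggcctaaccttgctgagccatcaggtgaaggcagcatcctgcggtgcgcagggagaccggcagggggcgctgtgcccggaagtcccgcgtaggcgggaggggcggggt
Alkbh7 (chr17:56997089-56997338, + strand): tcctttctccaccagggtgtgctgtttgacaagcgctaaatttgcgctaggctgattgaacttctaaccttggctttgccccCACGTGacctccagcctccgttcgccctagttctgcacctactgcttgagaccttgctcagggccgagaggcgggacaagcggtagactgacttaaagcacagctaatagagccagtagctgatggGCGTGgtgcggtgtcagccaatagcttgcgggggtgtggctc
The P4ha1 window holds 1 ACGTG and 2 GCGTG. The Egln1 window holds 1 of each. In the Alkbh7 window, CACGTG counts as 2 overlapping ACGTG and stands beside 1 GCGTG. These letters are not in the Alkbh2 window.

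Values are log2 expression centred for each probe set, so they show differences between arrays and not how much RNA a gene has. A gene's value is the mean of its probe sets. Differences were tested with limma over all 15858 genes (moderated test, two-sided, one fit over the 12 arrays), and a gene was called at a Benjamini-Hochberg adjusted p under 0.05. All fold changes below are on the log2 scale, as first group minus second group, with their standard error (SE, n = 3 arrays in each group). The IDH1wt, IDH1mut and R-2HG groups were compared with the same empty vector arrays, so these comparisons are not independent and their values are only set side by side.

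In R-2HG cells more of these genes were called lower than higher, as was so over all genes. Whether the shares differ from those of all genes was not tested. Against the empty vector 15 of the 45 genes fell and 3 rose, with the largest falls in Alkbh2, P4ha1, Alkbh7, Alkbh6, P3h1 and Ogfod3. That is 33.3% lower and 6.67% higher, where 24.3% of all genes tested were called lower and 16.5% higher. The median log2 difference of the 45 genes was -0.121, beside 0.00297 over all genes, and 32 of the 45 lay below 0. Of the R-2HG arrays, replicate 3 stood nearer the other groups. On the first principal component of all genes, which held 45.9% of the variance, the R-2HG arrays lay at 43, 44.6 and 13.4, and the other arrays at or below 0.491. With replicate 3 as the only R-2HG array, its spread assumed to be like that of the other groups, 7 of the 45 genes were lower and 2 higher, beside 8.09% and 3.41% of all genes, and 7 of the 18 calls were kept.

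In IDH1mut cells 10 of the 45 genes were lower and 2 higher than with the empty vector, led by Alkbh2, Egln1, P3h1, Alkbh7 and Plod3. These shares are 22.2% and 4.44%, where 12.1% of all genes were called lower and 10.5% higher. The median difference of the 45 genes was -0.0769, beside -0.0471 over all genes. The count of 12 calls depended on single arrays. It was 6 without empty vector replicate 1, 4 without empty vector replicate 2 and 5 without empty vector replicate 3. It was 6 without IDH1mut replicate 2 and 7 without IDH1mut replicate 3. The shares of all genes fell as well, to 7.91% to 8.83% higher and 7.39% to 10.3% lower in these fits.

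Against IDH1wt, IDH1mut cells had 4 lower genes (Kdm2b, Egln1, Plod3 and Ogfod3) and 1 higher gene (Kdm4c). These are 8.89% lower and 2.22% higher, where 7.29% of all genes were called lower and 8.37% higher, so the share of lower genes was near that of all genes. The median of the 45 was -0.0634, beside -0.00025 over all genes. The count of 5 fell to 1 without IDH1wt replicate 3, to 3 without IDH1mut replicate 1, to 1 without IDH1mut replicate 2 and to 2 without IDH1mut replicate 3. In these fits the shares of all genes also fell, to 5.66% to 7.07% higher and 4.23% to 6.17% lower.

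Between IDH1wt and the empty vector, 0 of the 45 genes passed the limma threshold in either direction, and the smallest adjusted p was 0.08. Over all genes 0.788% were called higher and 0.561% lower. At an unadjusted p under 0.05 there were 5 of the 45 genes, beside 16.2% of all genes. With array weights in the limma fit 2 passed, beside 3.88% of all genes higher and 4.87% lower. With the probe set of highest SD standing for each gene, 1 passed as higher, beside 1.58% of all genes. In a fit to the 6 arrays alone 1 passed as lower, beside 0.719% of all genes. The fold changes ran from -0.425 (Ogfod2) to 0.452 (Asph).

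IDH1mut and R-2HG cells also differed from each other. In this comparison 10 of the 45 genes were higher in IDH1mut (22.2%) and 2 lower (4.44%), where 20.3% of all genes were called higher and 15.8% lower. The share of higher genes was near that of all genes. The median of the 45 was 0.0855, beside -0.00357 over all genes. Without IDH1mut replicate 3, R-2HG replicate 1 or R-2HG replicate 2, the shares of all genes fell to 12% to 16.6% higher and 7.62% to 10.8% lower. The count of 12 fell to 7 without IDH1mut replicate 3, to 7 without R-2HG replicate 1 and to 5 without R-2HG replicate 2. With R-2HG replicate 3 alone it was 2.

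In the F test over the 4 groups 24 of the 45 genes passed (53.3%), which is near the 54.6% of all genes. A total of 24 genes were called in at least 1 of the 5 comparisons, 22 of which also passed the F test, and 21 were called in none. In every call of the 5 comparisons the arrays of both groups did not overlap. Passing the test with so few arrays already favours groups that lie apart, so this adds little to the calls. The matching share among all called genes is not given here. Of the 24 genes, 8 had a called difference of at least 0.5, and in all 8 the group means fell from the empty vector to IDH1wt, IDH1mut and R-2HG in this order. These genes were chosen by their differences between the same groups, and against the empty vector all 8 were called lower in R-2HG and 6 in IDH1mut. The order therefore follows in part from the choice, and how many other genes share it was not counted. The step from empty vector to IDH1wt did not pass the test for any of the 8.

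**Figure D1:**
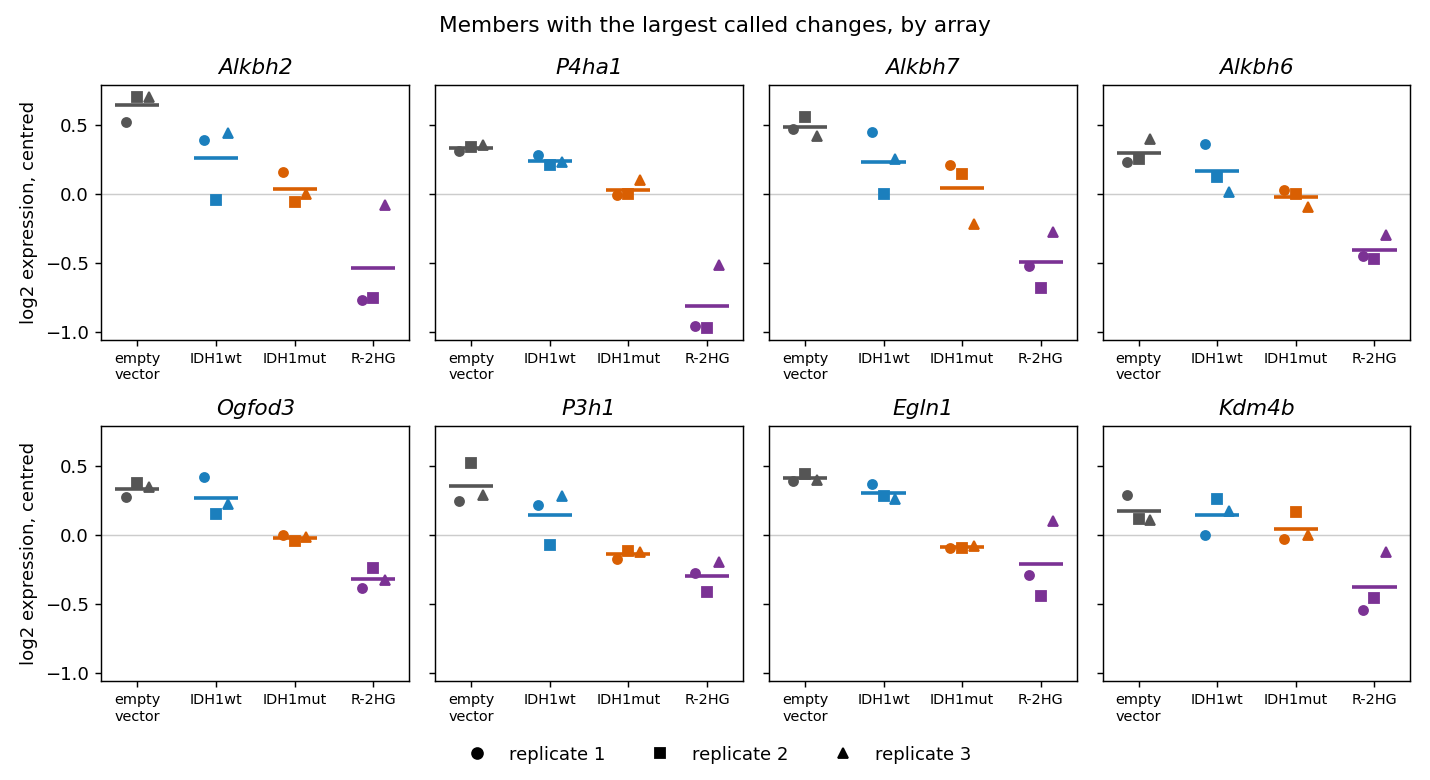
Centred log2 expression (y axis) of the 8 genes with a called difference of at least 0.5, on each of the 3 arrays of the 4 groups (x axis). Points are arrays, marker shapes are replicate numbers and bars are group means. The empty vector arrays lie above the R-2HG arrays in each panel, and R-2HG replicate 3 of Alkbh2 lies at -0.078 while the other R-2HG arrays lie at -0.771 and -0.756.

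Histone lysine demethylases were the most numerous class, and their differences were small and of both signs. The KDM5 enzymes remove methyl groups from lysine 4 of histone H3. Kdm5a was lower in R-2HG than with the empty vector, by -0.26 ± 0.068 (limma adjusted p = 0.0102), and higher in IDH1mut than in R-2HG, by 0.27 ± 0.068 (limma adjusted p = 0.0112). Kdm5b was higher in IDH1mut than in R-2HG, by 0.23 ± 0.0676 (limma adjusted p = 0.0215). That call was lost without IDH1mut replicate 2 (limma adjusted p = 0.0676) and without R-2HG replicate 2 (0.0989). Kdm5c was called in no comparison, although some of its probe sets moved in opposite directions between R-2HG and the empty vector. Probe set 1444157_a_at differed by -0.30 (limma over single probe sets, adjusted p = 0.00681) and 1441450_s_at by 0.32 (adjusted p = 0.0464). Between IDH1mut and R-2HG 1444157_a_at differed by 0.50 (adjusted p = 0.000999). Of the 3 genes, 0 were called between IDH1mut and the empty vector.

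The mean of Kdm5a hid probe sets that moved in opposite directions. Between R-2HG and the empty vector, probe set 1452360_a_at fell by 1.35 on the log2 scale (limma over single probe sets, adjusted p = 8.02e-05) and 1437106_at fell by 0.61 (limma adjusted p = 0.00297). Probe set 1441318_at rose by 0.35 (limma adjusted p = 0.0134) and 1444842_at by 0.42 (limma adjusted p = 0.0348). On the empty vector arrays 1452360_a_at read 0.223, 0.353 and 0.584, and on the R-2HG arrays -0.76, -1.19 and -0.932. All R-2HG arrays, replicate 3 included, were below every other array for this probe set. The annotation used does not say which transcripts each probe set reads.

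Kdm2a and Kdm2b encode demethylases of lysine 36 of histone H3, and Kdm2b also joins a Polycomb complex. Kdm2b was lower in IDH1mut than with the empty vector (-0.31 ± 0.0912, limma adjusted p = 0.0307) and than in IDH1wt (-0.42 ± 0.0912, limma adjusted p = 0.00933), and lower in R-2HG than with the empty vector (-0.39 ± 0.0912, limma adjusted p = 0.00546). The first of these calls was lost when any of the empty vector arrays or IDH1mut replicate 1 or 2 was left out, with limma adjusted p between 0.0589 and 0.102. In R-2HG against the empty vector the Kdm2b probe set 1452198_at differed by -0.60 (limma over single probe sets, adjusted p = 0.000801). Its other probe set, 1459861_s_at, differed by -0.18 (adjusted p = 0.211). Kdm2a was higher in R-2HG than with the empty vector (0.28 ± 0.0751, limma adjusted p = 0.0125). Among its 6 probe sets this difference ran from -0.119 to 0.88. The highest, 1438890_at, read -0.776, -0.716 and -0.553 with the empty vector and lay between -0.0898 and 0.382 on every other array, so that for this probe set the empty vector arrays stood alone.

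The KDM3, KDM4 and PHF enzymes act mainly on lysine 9, and some on lysine 36, of histone H3. Of these 8 genes Kdm4b changed most. It read 0.295, 0.116 and 0.109 with the empty vector, 0.00358, 0.267 and 0.174 in IDH1wt, -0.0255, 0.168 and 0 in IDH1mut, and -0.542, -0.459 and -0.121 in R-2HG. The R-2HG arrays were the lowest, replicate 3 least so, and the other groups overlapped. Kdm4b was lower in R-2HG than with the empty vector by -0.55 ± 0.114 (limma adjusted p = 0.00287) and higher in IDH1mut than in R-2HG by 0.42 ± 0.114 (limma adjusted p = 0.0151). With R-2HG replicate 3 alone the first value was -0.29 (limma adjusted p = 0.179) and the second 0.17 (0.489). The second was also lost without IDH1mut replicate 2 (0.0559), R-2HG replicate 1 (0.0664) or R-2HG replicate 2 (0.0615).

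Kdm4a was lower in IDH1mut than in R-2HG (-0.39 ± 0.104, limma adjusted p = 0.0143), a call lost without IDH1mut replicate 3 (-0.31, limma adjusted p = 0.0538). Kdm4c was higher in IDH1mut than with the empty vector (0.27 ± 0.0892, limma adjusted p = 0.0467) and than in IDH1wt (0.31 ± 0.0892, limma adjusted p = 0.0346). The first was lost with any 1 of its 6 arrays left out, with limma adjusted p from 0.0512 to 0.146. The second was lost in the same way for each array but IDH1wt replicate 1, with limma adjusted p from 0.0505 to 0.111. Phf2, a JmjC protein of the PHF family, was lower in IDH1mut than with the empty vector (-0.31 ± 0.0831, limma adjusted p = 0.0191). That call was lost without empty vector replicate 1 or 2 or IDH1mut replicate 1 (limma adjusted p 0.0585 to 0.0631). Of the 4 Phf2 probe sets 2 passed, and 1421067_a_at differed by -0.10 (limma over single probe sets, adjusted p = 0.732). Kdm3a, Kdm3b, Kdm4d and Phf8 were called in no comparison.

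Kdm6a and Kdm6b remove methyl groups from lysine 27 of histone H3, the mark placed by Ezh2. Kdm6a was higher in IDH1mut than with the empty vector (0.31 ± 0.0872, limma adjusted p = 0.0231). The call rested on 1 of its 4 probe sets: 1445198_at differed by 1.00 (limma over single probe sets, adjusted p = 0.00366), while 1440524_at differed by -0.18. It was also lost without any 1 empty vector array or without IDH1mut replicate 2, with limma adjusted p from 0.0519 to 0.0949. Kdm6b was called in no comparison, although 2 of its 3 probe sets were higher in R-2HG than with the empty vector, 1442643_at by 0.56 (limma over single probe sets, adjusted p = 0.0375) and 1456610_at by 0.48 (adjusted p = 0.0173).

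**Figure D2:**
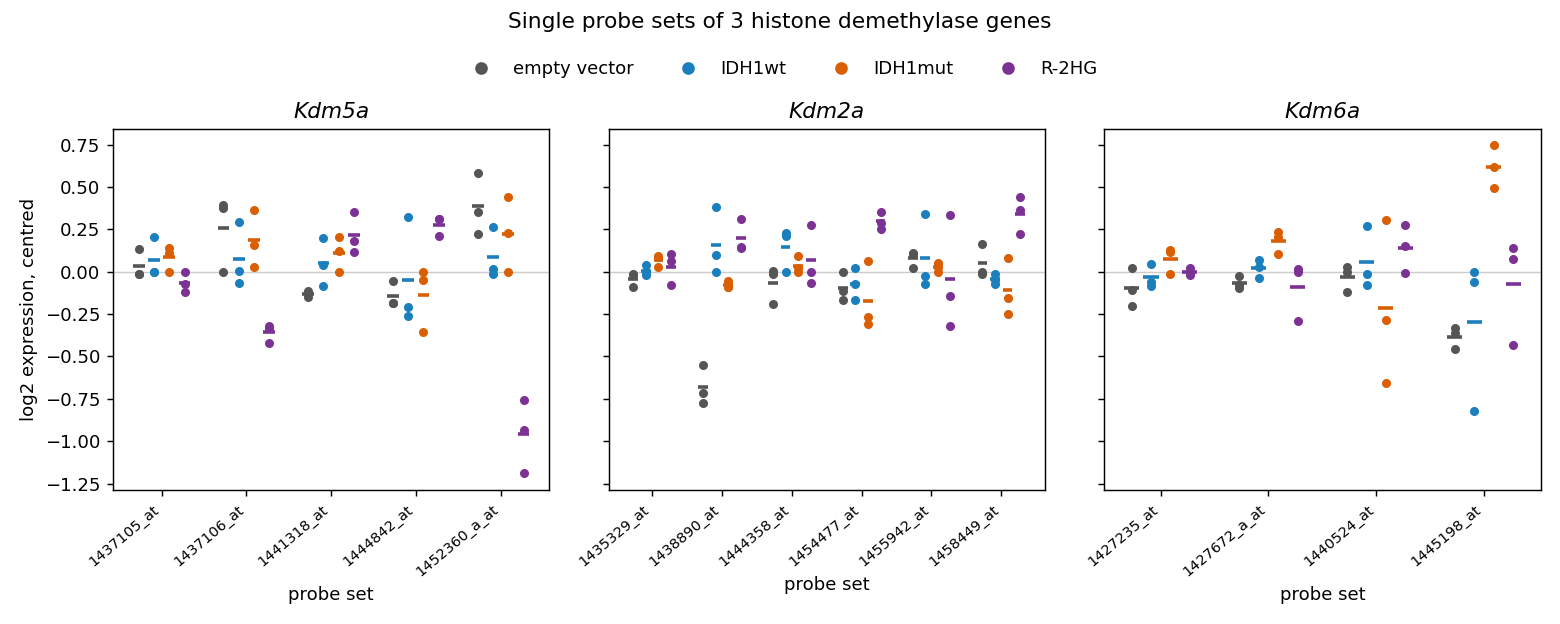
Centred log2 expression (y axis) of each probe set (x axis) of Kdm5a, Kdm2a and Kdm6a. Points are arrays, coloured by group, and bars are group means. The R-2HG arrays of Kdm5a lie below the others for 1452360_a_at and above the empty vector arrays for 1444842_at.

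The oxygen sensors are the HIF prolyl hydroxylases Egln1, Egln2 and Egln3, which mark HIF for destruction when oxygen is present, and Hif1an, which hydroxylates an asparagine of HIF and blocks its co-activators. Only Egln1 was called among these 4. It read 0.392, 0.447 and 0.4 with the empty vector, 0.375, 0.287 and 0.266 in IDH1wt, -0.0944, -0.0912 and -0.0769 in IDH1mut, and -0.288, -0.439 and 0.106 in R-2HG. The empty vector and IDH1wt arrays lay above all IDH1mut and R-2HG arrays, the IDH1mut arrays were close together, and R-2HG replicate 3 lay above them. Egln1 was lower than with the empty vector in IDH1mut, by -0.50 ± 0.111 (limma adjusted p = 0.00698), and in R-2HG, by -0.62 ± 0.111 (limma adjusted p = 0.0012). With R-2HG replicate 3 alone the difference was -0.31 (limma adjusted p = 0.0578).

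Egln1 was also lower in IDH1mut than in IDH1wt, by -0.40 ± 0.111 (limma adjusted p = 0.0313), a call lost with any 1 of the 6 arrays left out (limma adjusted p 0.0615 to 0.0979). Both probe sets of Egln1, 1423785_at and 1451110_at, were lower in IDH1mut (-0.36 and -0.64) and in R-2HG (-0.38 and -0.86) than with the empty vector, and each passed in both comparisons (limma over single probe sets, adjusted p 0.000935 to 0.0168). The IDH1mut to R-2HG difference was 0.12 ± 0.111 (limma adjusted p = 0.412), with a 95% interval of -0.122 to 0.362. The other oxygen sensors had differences between -0.251 and 0.3 in the 5 comparisons. Egln3 at 0.30 ± 0.111 between IDH1mut and R-2HG came closest to the threshold (limma adjusted p = 0.0523).

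The collagen hydroxylases work in the endoplasmic reticulum: P4ha1 is a catalytic subunit of collagen prolyl 4-hydroxylase, P3h1 is a prolyl 3-hydroxylase, and Plod1, Plod2 and Plod3 hydroxylate lysines. In R-2HG 3 of the 5 measured genes fell and 1 rose against the empty vector, where 24.3% of all genes were called lower and 16.5% higher. P4ha1 read 0.312, 0.339 and 0.353 with the empty vector, 0.286, 0.209 and 0.235 in IDH1wt, -0.00988, 0 and 0.104 in IDH1mut, and -0.961, -0.974 and -0.513 in R-2HG. The 4 groups did not overlap at all, and R-2HG replicate 3 was again the highest of its group. P4ha1 was lower in R-2HG than with the empty vector by -1.15 ± 0.107, a 2.22-fold difference (limma adjusted p = 5.09e-05). It was higher in IDH1mut than in R-2HG by 0.85 ± 0.107 (limma adjusted p = 0.000664). The IDH1mut to empty vector difference was -0.30 ± 0.107 (limma adjusted p = 0.0608). With R-2HG replicate 3 alone the first value was -0.85 (limma adjusted p = 0.00199) and the second 0.54 (0.0239).

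P3h1 read 0.252, 0.525 and 0.292 with the empty vector, 0.222, -0.0695 and 0.283 in IDH1wt, -0.17, -0.118 and -0.12 in IDH1mut, and -0.276, -0.411 and -0.197 in R-2HG. The empty vector and IDH1wt arrays overlapped, and both lay above the IDH1mut and R-2HG arrays. P3h1 was lower than with the empty vector by -0.49 ± 0.104 in IDH1mut (limma adjusted p = 0.00531) and by -0.65 ± 0.104 in R-2HG (limma adjusted p = 0.0006). In IDH1mut 1 of its 2 probe sets passed, and the other, 1452752_at, differed by -0.41 (limma over single probe sets, adjusted p = 0.072). Plod3 was lower in IDH1mut than with the empty vector (-0.43 ± 0.0781, limma adjusted p = 0.00214) and than in IDH1wt (-0.29 ± 0.0781, limma adjusted p = 0.0271), and lower in R-2HG than with the empty vector (-0.31 ± 0.0781, limma adjusted p = 0.00847). The IDH1wt comparison lost its call without IDH1wt replicate 1 or 3 or IDH1mut replicate 2 or 3 (limma adjusted p 0.0573 to 0.108).

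Plod2 rose in R-2HG against the empty vector (0.29 ± 0.105, limma adjusted p = 0.0464). That call was lost without empty vector replicate 2 (0.18, limma adjusted p = 0.194) or 3 (0.0919), and without R-2HG replicate 1 (0.06) or 2 (0.186). Plod1 was called in no comparison, although in R-2HG against the empty vector 1416289_at differed by -0.54 (limma over single probe sets, adjusted p = 0.00494). Its other probe set, 1445893_at, differed by 0.15 (adjusted p = 0.491). The collagens and the collagen chaperone Serpinh1, on which these enzymes act or with which they work, had 11 measured genes, of which 3 rose and 0 fell in R-2HG: Serpinh1 (0.58 ± 0.146, limma adjusted p = 0.00828), Col6a2 (0.35 ± 0.0874, 0.0074) and Col6a3 (0.40 ± 0.149, 0.0468). The median difference of the 11 genes was 0.126, where 16.5% of all genes were called higher and 24.3% lower in R-2HG. In IDH1mut Col5a1 rose (0.96 ± 0.111, limma adjusted p = 0.000129) and Col4a2 fell (-0.47 ± 0.128, 0.0188), with a median of -0.0845 over the list.

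The AlkB family removes alkyl groups from nucleic acids and proteins. All 9 of its genes were measured, and all 9 had a value below 0 in R-2HG against the empty vector, with a median of -0.33. Of these 5 fell and 0 rose, where 24.3% of all genes were called lower and 16.5% higher. In IDH1mut against the empty vector 3 fell and 0 rose, with a median of -0.137, where 12.1% of all genes were called lower and 10.5% higher. Against IDH1wt 0 of the 9 were called, beside 7.29% of all genes lower and 8.37% higher. In IDH1mut against R-2HG 5 were higher and 0 lower, beside 20.3% of all genes higher and 15.8% lower.

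Alkbh2, which repairs alkylated DNA, had the largest difference of all 45 genes. It read 0.527, 0.709 and 0.704 with the empty vector, 0.39, -0.0429 and 0.443 in IDH1wt, 0.163, -0.0605 and 0 in IDH1mut, and -0.771, -0.756 and -0.078 in R-2HG. The R-2HG arrays were the lowest, but replicate 3 lay only just below the lowest IDH1mut array, and IDH1wt replicate 2 lay among the IDH1mut arrays. Alkbh2 was lower than with the empty vector by -1.18 ± 0.176 in R-2HG, a 2.27-fold difference (limma adjusted p = 0.000422), and by -0.61 ± 0.176 in IDH1mut (limma adjusted p = 0.0259). The IDH1mut call was lost without empty vector replicate 2 or 3 or IDH1mut replicate 2 or 3 (limma adjusted p 0.0757 to 0.0813). With R-2HG replicate 3 alone the R-2HG difference was -0.72 (limma adjusted p = 0.0295). Alkbh2 was higher in IDH1mut than in R-2HG by 0.57 ± 0.176 (limma adjusted p = 0.0266). This fell to 0.11 (limma adjusted p = 0.751) with R-2HG replicate 3 alone, and the call was lost without IDH1mut replicate 1 or 3 or R-2HG replicate 1 or 2 (0.0574 to 0.107).

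Alkbh7, a mitochondrial protein linked to necrotic cell death after alkylation damage, read 0.476, 0.56 and 0.425 with the empty vector, 0.453, 0 and 0.254 in IDH1wt, 0.208, 0.142 and -0.218 in IDH1mut, and -0.526, -0.687 and -0.276 in R-2HG. The R-2HG arrays were below all others, with replicate 3 close to IDH1mut replicate 3. The difference from the empty vector was -0.98 ± 0.141 in R-2HG (limma adjusted p = 0.000343) and -0.44 ± 0.141 in IDH1mut (limma adjusted p = 0.0408). With R-2HG replicate 3 alone the first was -0.76 (limma adjusted p = 0.0295). The IDH1mut call was lost without any 1 empty vector array or without IDH1mut replicate 2 or 3 (limma adjusted p 0.0581 to 0.159). IDH1mut exceeded R-2HG by 0.54 ± 0.141 (limma adjusted p = 0.0132), a call lost without R-2HG replicate 2 (0.06) and at 0.32 (0.346) with R-2HG replicate 3 alone.

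Alkbh6 belongs to the family by sequence. It read 0.23, 0.255 and 0.402 with the empty vector, 0.365, 0.121 and 0.0131 in IDH1wt, 0.0325, 0 and -0.0924 in IDH1mut, and -0.448, -0.474 and -0.296 in R-2HG. The R-2HG arrays lay below all others, while IDH1wt overlapped both the empty vector and IDH1mut. The difference from the empty vector was -0.70 ± 0.0953 in R-2HG (limma adjusted p = 0.000255) and -0.32 ± 0.0953 in IDH1mut (limma adjusted p = 0.0323). The IDH1mut call was lost without empty vector replicate 2 or 3 or IDH1mut replicate 2 or 3 (limma adjusted p 0.0631 to 0.127). IDH1mut exceeded R-2HG by 0.39 ± 0.0953 (limma adjusted p = 0.0103), and by 0.28 (0.274) with R-2HG replicate 3 alone.

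Alkbh5 and Fto are the enzymes known to demethylate N6-methyladenosine (m6A) in RNA. Alkbh5 was lower in R-2HG than with the empty vector (-0.33 ± 0.0625, limma adjusted p = 0.00169), on both of its probe sets. It was higher in IDH1mut than in R-2HG by 0.18 ± 0.0625 (limma adjusted p = 0.0434), a call lost with any 1 of the 6 arrays left out (limma adjusted p 0.0547 to 0.126). Fto was called in no comparison. Its probe sets differed: 1448223_at was lower than with the empty vector in IDH1mut (-0.35, limma over single probe sets, adjusted p = 0.0146) and in R-2HG (-0.40, 0.00402), whereas 1430829_s_at differed by 0.07 (0.799) and -0.01 (0.972). Alkbh4, which acts on actin, fell in R-2HG against the empty vector (-0.36 ± 0.0936, limma adjusted p = 0.01), on each of its 3 probe sets. Alkbh3, a DNA and RNA repair enzyme, was higher in IDH1mut than in R-2HG (0.24 ± 0.0732, limma adjusted p = 0.0243), a call lost without IDH1mut replicate 3 (0.0821) or R-2HG replicate 1 (0.0501) or 2 (0.0918). Alkbh1 and Alkbh8 were called in no comparison.

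The m6A writers and readers, the partners of Alkbh5 and Fto, had 15 measured genes. In R-2HG 1 rose and 6 fell against the empty vector (median -0.0952), and in IDH1mut 3 rose and 2 fell (median 0.0262). Of all genes, 16.5% were called higher and 24.3% lower in R-2HG, and 10.5% higher and 12.1% lower in IDH1mut. The R-2HG genes of smallest p were Rbm15 (-0.58 ± 0.0822, limma adjusted p = 0.00031), Zc3h13 (-0.58 ± 0.103, 0.00112) and Wtap (-0.31 ± 0.0578, 0.00142), which are all subunits of the m6A writer complex, and the reader Hnrnpa2b1 (0.34 ± 0.0742, 0.00391). In IDH1mut they were Ythdc1, a nuclear reader (0.61 ± 0.0895, limma adjusted p = 0.000589), and Cbll1, a writer subunit (-0.39 ± 0.0808, 0.00484).

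Of the 9 other protein hydroxylases, which act on ribosomal proteins, splicing factors and other proteins, Ogfod3 had the largest called difference. Ogfod3 takes its name from its predicted dioxygenase domain. It read 0.279, 0.378 and 0.354 with the empty vector, 0.424, 0.158 and 0.225 in IDH1wt, 0.00102, -0.0404 and -0.0108 in IDH1mut, and -0.384, -0.238 and -0.323 in R-2HG. The empty vector and IDH1wt arrays lay above the IDH1mut arrays, which lay above the R-2HG arrays, and R-2HG replicate 3 stood between the other R-2HG arrays. Ogfod3 differed from the empty vector by -0.65 ± 0.0779 in R-2HG (limma adjusted p = 0.000135) and by -0.35 ± 0.0779 in IDH1mut (limma adjusted p = 0.00671). It was lower in IDH1mut than in IDH1wt by -0.29 ± 0.0779 (limma adjusted p = 0.0279) and higher in IDH1mut than in R-2HG by 0.30 ± 0.0779 (limma adjusted p = 0.0132). The IDH1wt call was lost with any 1 of the 6 arrays but IDH1wt replicate 2 left out (limma adjusted p 0.054 to 0.0995). The call against R-2HG was lost without R-2HG replicate 1 (0.0559), and the R-2HG difference from the empty vector was -0.66 (limma adjusted p = 0.00872) with R-2HG replicate 3 alone.

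Jmjd4, which hydroxylates a translation termination factor, was lower in R-2HG than with the empty vector (-0.19 ± 0.0636, limma adjusted p = 0.0309). The call was lost with any 1 of the 6 arrays but empty vector replicate 2 left out (limma adjusted p 0.0534 to 0.115). Ogfod1, Ogfod2, Riox1, Riox2, Jmjd6, Kdm8 and Asph were called in no comparison.

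Among the small-molecule hydroxylases, Tmlhe and Bbox1 catalyse the first and the last step of carnitine synthesis, and Phyh starts the oxidation of phytanic acid. Tmlhe was lower than with the empty vector in IDH1mut (-0.30 ± 0.101, limma adjusted p = 0.0473) and in R-2HG (-0.37 ± 0.101, limma adjusted p = 0.0119). The first call was lost with any 1 of the 6 arrays but IDH1mut replicate 2 left out (limma adjusted p 0.0905 to 0.164), and the second without R-2HG replicate 1 (0.0549). Of the 4 Tmlhe probe sets 2 passed in IDH1mut, and 1446546_at differed by -0.09 there (limma over single probe sets, adjusted p = 0.708). Bbox1 was higher in R-2HG than with the empty vector (0.32 ± 0.105, limma adjusted p = 0.0283) and than in IDH1mut (IDH1mut minus R-2HG -0.36 ± 0.105, limma adjusted p = 0.0197). The first was lost without empty vector replicate 2 (0.0561) or 3 (0.12) or R-2HG replicate 1 (0.0777) or 2 (0.101). The second was lost without IDH1mut replicate 3 (0.0728) or R-2HG replicate 1 (0.0612) or 2 (0.0778). Phyh was called in no comparison.

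The 21 genes called in no comparison had differences between -0.295 and 0.161 in IDH1mut and between -0.33 and 0.34 in R-2HG against the empty vector. Between IDH1mut and R-2HG they ran from -0.348 to 0.3, and between IDH1mut and IDH1wt from -0.336 to 0.227. The SE of the 45 genes was 0.0625 to 0.176 in each comparison, so differences of this size could not be told from 0 for many of them.

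**Figure D3:**
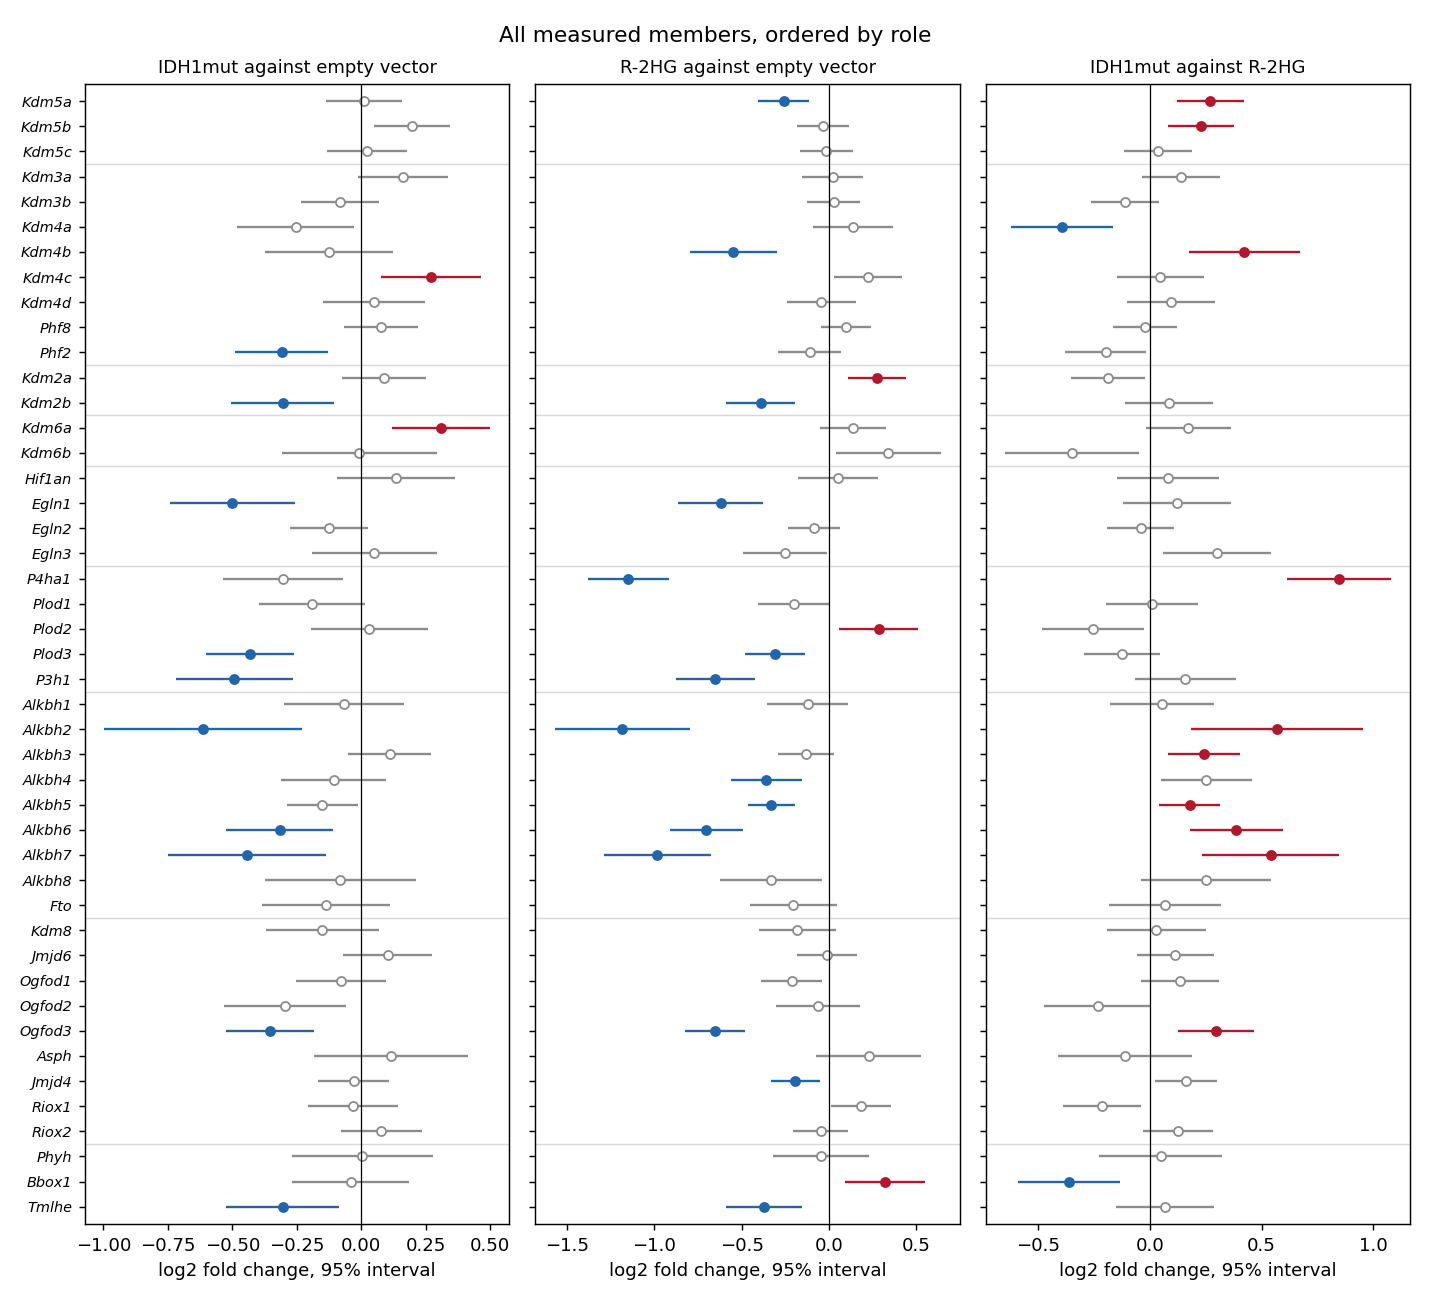
Log2 fold change (x axis, with the 95% interval; the scale differs between panels) of all 45 measured genes (y axis, ordered by role, with lines between roles) in 3 comparisons. Filled red points are called higher, filled blue points called lower and open grey points not called (limma adjusted p under 0.05). In the R-2HG panel the points of all 9 AlkB genes lie left of 0.

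**Figure D4:**
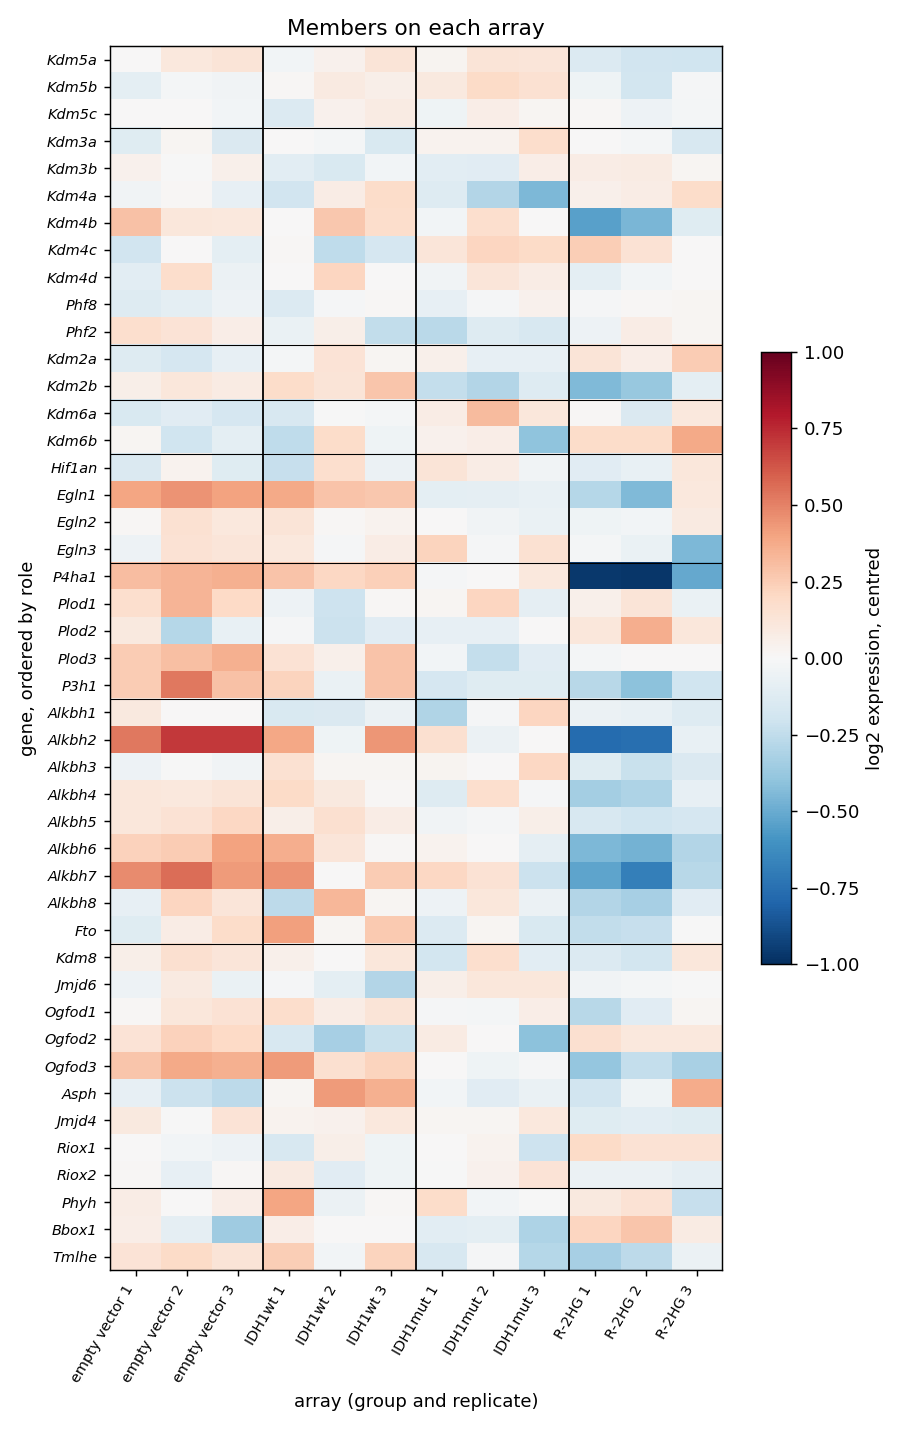
Centred log2 expression (colour, from -1 in blue to 1 in red) of the 45 genes (rows, ordered by role) on the 12 arrays (columns, by group and replicate). The R-2HG replicate 1 and 2 columns are the darkest blue for P4ha1 and Alkbh2, and the replicate 3 column is paler for both.

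On single probe sets, 12 of the 103 were higher and 30 lower in R-2HG than with the empty vector, beside 15.7% higher and 23.8% lower of all 28805 probe sets. In 2 genes, Kdm5a and Kdm5c, probe sets were called in both directions. Single probe sets were also called in some genes whose mean was not, among them Plod1, Asph and Riox2. Of the 8 genes given with their array values, 6 have 1 probe set, so nothing on the array checks them a second time. The exceptions are Egln1 and P3h1, whose pairs of probe sets were all lower in R-2HG.

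Other 2-oxoglutarate dioxygenases and JmjC proteins outside the list had 14 measured genes. In R-2HG 2 rose and 2 fell against the empty vector (median 0.154), and in IDH1mut 2 rose and 1 fell (median -0.0868). The shares of all genes, for this and the following lists, were 16.5% higher and 24.3% lower in R-2HG. For IDH1mut they were 10.5% higher and 12.1% lower. Jmjd8, a JmjC protein of the endoplasmic reticulum, fell in both, by 1.06 on the log2 scale in R-2HG (SE 0.14, limma adjusted p = 0.000214) and by 0.61 in IDH1mut (limma adjusted p = 0.00791). Jarid2, a JmjC protein of Polycomb complex 2 without demethylase activity, fell in R-2HG (-0.25 ± 0.0682, limma adjusted p = 0.0114). Jmjd1c (0.55 ± 0.101, limma adjusted p = 0.0024) and Kdm7a (0.44 ± 0.0964, 0.00628), which are related to KDM3 and PHF8, rose in IDH1mut.

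The HIF pathway core had 15 measured genes. The list holds the HIF subunits, their ubiquitin ligase and co-activators, and also Siah1a, Siah2 and Cited2. In R-2HG 1 rose and 4 fell (median -0.0281), with the ligase subunits Eloc (-0.55 ± 0.084, limma adjusted p = 0.000464) and Cul2 (-0.53 ± 0.102, 0.00169) and Hif1a itself (-0.32 ± 0.0664, 0.00299) lower, and the co-activator Ep300 higher (0.33 ± 0.0879, 0.0113). In IDH1mut 2 rose and 0 fell (median 0.0604): Siah1a (0.23 ± 0.0682, limma adjusted p = 0.0285) and Hif3a (0.28 ± 0.0829, 0.0308). Of 26 measured hypoxia and HIF target genes, 4 rose and 9 fell in R-2HG (median -0.169), and 6 rose and 4 fell in IDH1mut (median 0.0346). Car9, a carbonic anhydrase, fell in R-2HG (-0.82 ± 0.129, limma adjusted p = 0.000536) and in IDH1mut (-0.57 ± 0.129, 0.00772). Pdk1, which restrains pyruvate entry into the citric acid cycle, fell in R-2HG (-0.60 ± 0.0966, limma adjusted p = 0.000615). Pfkfb4, a regulator of glycolysis, rose in IDH1mut (0.84 ± 0.162, limma adjusted p = 0.00309), as did the lactate transporter Slc16a3 (0.53 ± 0.108, 0.00447), while Vegfa, the vascular growth factor, fell there (-0.43 ± 0.0839, 0.00364).

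The histone lysine methyltransferases, which place the marks the demethylases remove, had 21 measured genes. In R-2HG 6 rose and 4 fell (median 0.0244), and in IDH1mut 2 rose and 3 fell (median -0.027). The genes of smallest p in R-2HG were Smyd2 (-1.10 ± 0.164, limma adjusted p = 0.00043), Setd7 (0.32 ± 0.0667, 0.00314) and the H3 lysine 9 enzyme Suv39h2 (-0.43 ± 0.0937, 0.00362). In IDH1mut they were Nsd3, an H3 lysine 36 enzyme (0.52 ± 0.0678, limma adjusted p = 0.000281), and Kmt2d, an H3 lysine 4 enzyme (-0.30 ± 0.0829, 0.0199).

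The sorted cells differed in their blood cell markers as well, and how far this bears on the counts above was not tested. In bulk RNA, fewer cells of a type and less RNA per cell cannot be told apart, and centred values cannot show that a marker is at 0. The median over 11 mast cell, basophil and eosinophil markers was -2.12 and -2.34 on R-2HG replicates 1 and 2 and 0.103 on replicate 3, against 0.141 to 0.205 with the empty vector; 6 of the 11 genes were called lower in R-2HG and 3 in IDH1mut. Of 13 erythroid markers 3 were called higher in IDH1mut than with the empty vector, and in R-2HG 1 was called higher and 0 lower. Their median was -1.29, -1.85 and 0 on the R-2HG arrays, -0.8 to -0.62 with the empty vector and 0.152 to 0.388 in IDH1mut. For 11 B cell markers it was -0.643, -0.502 and -0.247 in R-2HG, 0.0214 to 1.04 with the empty vector and 0.409 to 1.49 in IDH1mut. For 11 neutrophil markers it was 0.0685 to 0.218 in R-2HG, -0.184 to -0.0573 with the empty vector and 0.286 to 0.403 in IDH1mut, with 6 called higher in R-2HG and 7 in IDH1mut. Of a list of primary granule genes that also holds Ms4a3 and Calr, all 6 measured genes were lower in both. Their medians were -0.379 to -0.113 in R-2HG, 0.217 to 0.286 with the empty vector and -0.577 to -0.567 in IDH1mut.

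Among 12 monocyte and macrophage markers 0 rose and 4 fell in R-2HG, and 1 rose and 5 fell in IDH1mut, against the empty vector. Among 10 T and NK cell markers the counts were 2 and 3 in R-2HG and 3 and 1 in IDH1mut, and among 9 stromal and endothelial markers 3 and 2, and 1 and 1. R-2HG replicate 3 was the R-2HG array nearest the empty vector mean for 12 of the 18 genes called in R-2HG. Replicates 1 and 2 were nearest for 3 each. Replicate 3 also stood nearer the other groups on the first principal component of all genes, and the matching share of all genes was not computed. The part of cell composition in the differences of the dioxygenase genes was not tested. Idh1 on the array, with mouse probe sets, differed from the empty vector by -0.16 ± 0.113 in IDH1wt (limma adjusted p = 0.525) and by -0.06 ± 0.113 in IDH1mut (limma adjusted p = 0.744), and neither difference passed.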

How the data were processed

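RNA of 12 samples was hybridised to 1-colour Affymetrix mouse genome arrays. The authors deposited log2 values made with RMA, per the submitters' processing notes. In the deposited log2 values each probe set is centred, on a reference not given in the sources used here, so levels cannot be compared between genes. The annotation gave 1 gene symbol to 28805 of 32533 probe sets, several to 757 and none to 2971; only the first were used. Probe sets of a gene were averaged. limma 3.58.1 in R 4.3.3 fitted 1 coefficient per group over all 12 arrays, with 5 pairwise comparisons and a moderated F test, and Benjamini-Hochberg adjustment over 15858 genes. The tests were checked on simulated data. Figures were drawn with matplotlib 3.10.9.

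The listed genes, the role, context and marker lists and the tests were chosen with earlier results of these data known. Genes called with a difference of at least 0.5 are given with every array's value, other called genes by their differences, and the rest by range; of each context list the 2 to 4 genes of smallest p in the comparison described are named, of which fewer are printed where fewer passed. Leave-outs named in the report are those that end a call. Intensities, scan dates and batches were not used here. Alternatives tried were quantile normalization, the probe set with the highest SD, a variance trend, array weights, the replicate number as a block, fitting only the 6 arrays compared, a fold change of at least 1.5, a filter on SD, each array left out, and each probe set alone.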

Additional observations from a re-analysis of the deposited data

How the results depend on the processing

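The number of the 45 genes called was recomputed under each alternative. Between IDH1mut and IDH1wt it was 5; it became 3 with the probe set of highest SD, 10 with array weights, 3 with the replicate block, 2 in the fit to 6 arrays and 0 at a fold minimum of 1.5, and ran from 1 to 6 with single arrays left out. Between IDH1wt and the empty vector it was 0, and 1 with the probe set of highest SD, 2 with array weights and 1 with 6 arrays. Between IDH1mut and R-2HG it was 12, and 19 with array weights, 1 at the fold minimum, 2 with R-2HG replicate 3 alone and 5 to 13 with single arrays left out. Between IDH1mut and the empty vector it was 12, and 1 at the fold minimum and 4 to 10 with single arrays left out. Between R-2HG and the empty vector it was 18, and 7 at the fold minimum, 9 with R-2HG replicate 3 alone and 14 to 21 with single arrays left out. The F test gave 24 genes and 16 to 23 with single arrays left out. The shares of all genes moved under the alternatives too. With array weights 9.99% were higher and 9.49% lower between IDH1mut and IDH1wt, and 26.3% and 22.2% between IDH1mut and R-2HG. At the fold minimum 3.5% were higher and 2.36% lower between IDH1mut and the empty vector, and 2.63% and 7.63% between R-2HG and the empty vector.

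No called difference changed sign under any fit of the gene values. Single probe sets did, against the gene's mean: Kdm6a in IDH1mut against the empty vector (1440524_at, -0.18); in R-2HG against the empty vector Kdm2a (1455942_at, -0.12) and Kdm5a (1441318_at, 0.35, and 1444842_at, 0.42); in IDH1mut against R-2HG Kdm5a (1441318_at, -0.11, and 1444842_at, -0.41) and Kdm5b (1442278_at, -0.0397). Why these differ was not tested. Alkbh2, Alkbh6, Alkbh7, Ogfod3, P3h1 and P4ha1 in R-2HG against the empty vector, and P4ha1 in IDH1mut against R-2HG, kept their calls in all 15 other fits.

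In the comparisons tested, deviations of samples with the same replicate number had correlations of -0.112 to 0.0971. With so few arrays a group, these values cannot decide whether the numbers pair the samples. With the replicate block 39 of 47 calls were kept. A filter on low levels could not be run on centred values, and the variance trend, which kept all 47 calls, follows the mean of centred values rather than intensity. Signal over background is not known from these values, so genes near background could not be set apart.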

Other observations

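The related pathways also differed between IDH1mut and R-2HG, where 20.3% of all genes were called higher and 15.8% lower in IDH1mut. Of 26 hypoxia and HIF target genes 13 were higher and 2 lower in IDH1mut (median 0.269), with Slc16a3 at 0.56 ± 0.108 (SE, limma adjusted p = 0.00366) and Pfkfb4 at 0.83 ± 0.162 (0.00369) higher and Vegfa at -0.50 ± 0.0839 (0.00203) lower. Of 15 m6A writers and readers 5 were higher and 0 lower (median 0.152), led by Rbm15 (0.57 ± 0.0822, limma adjusted p = 0.00104) and Mettl3, the catalytic writer (0.47 ± 0.0774, 0.00188). Of 11 collagen genes 1 was higher, Col5a1 (0.84 ± 0.111, limma adjusted p = 0.000756), and 6 lower (median -0.312). Of 21 histone lysine methyltransferases 4 were higher, led by Smyd2 (1.19 ± 0.164, limma adjusted p = 0.000877), and 4 lower, led by Setd1b (-0.61 ± 0.111, 0.00271). The HIF pathway core had 3 higher and 2 lower of 15, and the other dioxygenases and JmjC proteins 4 higher and 4 lower of 14.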
